A study of Homo sapiens with 8 samples.

Results

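H146 is an established human cell line from small cell lung cancer, and it was 1 of the 8 cancer cell lines whose RNA was sequenced here. The line was chosen by its name in the labels, and its expression values were set against those of the other 7 lines, gene by gene. Those lines were H522 (lung, non-small cell lung cancer), H661 (lung, large cell lung cancer), KLE (endometrial adenocarcinoma), HEC59 (endometrial carcinoma), H716 (cecum, colorectal adenocarcinoma), 1321N1 (glial cells, brain astrocytoma) and COV318 (ovarian epithelial-serous carcinoma). The labels name no treatment: RNA was taken from all 8 lines after 48 hours of culture in plates. The series was built to compare lines that express ERBB4 and do or do not respond to ibrutinib, a kinase inhibitor, but the labels do not say which lines respond, and that comparison was not made. Each line has 1 library, so no difference below has a replicate check and no test was run. What is given is the level in H146 beside the lowest, the median and the highest level of the other 7 lines.

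Small cell lung cancer is a neuroendocrine tumour, whose cells share with neurons and endocrine cells a machinery for making, storing and releasing peptides and amines. The zinc-finger factor INSM1 takes part in that programme, and the repressor REST keeps neuronal genes silent in most other cells. Loss of the tumour suppressor RB1 is a hallmark of the disease, and its neuroendocrine form is known for low activity of the YAP1 pathway, weak attachment to surfaces and little display of antigens.

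Levels are FPKM, in which fragments are divided by transcript length and by the mapped total of the library. A margin is the distance, on the log2(FPKM + 1) scale, between H146 and the nearest of the other 7 lines, and a gene was called higher or lower where H146 lay outside all of them by a margin of at least 1. For genes well above 1 FPKM, that is about a 2-fold distance; for genes near 0 it understates the ratio. Genes at 1 FPKM or more in at least 1 line were kept, which left 19209 genes, of them 13954 protein-coding.

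The files hold no read totals, so the depth of each library is unknown in absolute terms. Steps in the values under 0.1 FPKM put the depth of H146 at 0.546 times that of 1321N1 and at 1.49 times that of KLE, with the other 5 lines between. These ratios are rough, since 12.9% to 29.5% of the genes with such low values lay within 0.03 (log2) of the commonest ratio. Mitochondrial genes took 14.3% of the summed protein-coding FPKM in H146, against 4.77% to 17.2% in the other lines, where HEC59 had the highest share. The libraries of H146 and HEC59 also shared traces of each other's genes. Of 53 protein-coding genes at 10 FPKM or more in H146 and under 1 FPKM elsewhere, 45 were above 0 in HEC59 (84.9%), with a median of 0.226% of the H146 level. In the other 6 lines, 26.4% to 43.4% of these genes were above 0. Conversely, 6 of the 7 genes restricted in this way to HEC59 were above 0 in H146, at a median of 0.754% of the HEC59 level. KLE also had 6 of them above 0, at a median of 0.753%, and COV318 had 5, at 0.293%. Such traces were not particular to H146 and HEC59. COV318 was above 0 for all 18 genes restricted to 1321N1, and H716 for 18 of 20 restricted to H661. What carried these traces was not tested. A level in H146 at or below 0.754% of the HEC59 level cannot be told apart from them. This holds for 60 of the 383 genes called lower below, and for 21 of the 25 with the widest margins. That share is a median over 7 genes, so higher levels may be traces too. Without HEC59 among the comparison lines, 577 genes were called higher and 537 lower.

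Because REST was nearly silent in H146 (values below), promoters that carry the core of its binding site are shown here. Both 6-base parts of the site, AGCACC and GGACAG, were searched 2 bases apart on both strands of the RefSeq promoter windows of GRCh38.p14, which run from 250 bases before to 50 after each start. Of 35116 windows, 20 held the pair (0.0570%). Sites on chromosomes 8 and Y were not followed to genes, and the rest included windows of 8 protein-coding genes past the filter. The sites below are from 2 genes that were called higher in H146, GAD2 and RPH3A, from SYN1, and from GRIA2, whose level was higher in H522 than in H146. Each is written 5′ to 3′ with the 2 parts in capitals.
GAD2: gctgtggcAGCACCcgGGACAGcggccgcc
RPH3A: tggcggtcAGCACCacGGACAGcgctaaga
SYN1: ccagcttcAGCACCgcGGACAGtgccttcg
GRIA2: ggcctttcAGCACCgaGGACAGcgcctcgc
The GAD2 site lies at chr10:26216286-26216315 on the plus strand. The others lie on the minus strand, at chr12:112791544-112791573 (RPH3A), chrX:47620066-47620095 (SYN1) and chr4:157220384-157220413 (GRIA2). GAD2, which makes the transmitter GABA from glutamate, stood at 5.01 FPKM in H146 and at 0 to 0.896 FPKM (median 0) elsewhere. For RPH3A, a synaptic vesicle protein that binds RAB3, the level was 1.42 FPKM in H146 and at most 0.0271 FPKM in any other line. SYN1, which tethers synaptic vesicles, had 5.47 FPKM in H146 and up to 2.94 FPKM in H716, a margin under 1. The glutamate receptor gene GRIA2 reached 52.3 FPKM in H146, 180 FPKM in H522 and a median of 0.872 FPKM over the other lines. H146 was the highest line for 5 of the 8 genes, but GAD2, RPH3A and TTC9B, 3 of these 5, reached 1 FPKM in H146 alone and so had to be highest there. Both site genes called higher are among those 3, and nothing is read from these counts. Windows were at hand for 75.7% of the genes called higher and 80.9% of all protein-coding genes past the filter, and the share of sites was not compared between them.

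H146 was called higher than every other line for 3.74% of the 13954 protein-coding genes and lower for 383 of them (2.74%). Both numbers were the largest of the 8 lines: the same rule gave 197 to 489 higher and 29 to 148 lower genes in the others. H146 was the highest line at any margin for 1714 genes (12.3%) and the lowest for 2793 (20.0%), against 1262 to 2317 and 1013 to 2060 in the other lines. The genes called higher were of 2 kinds. A gene that reaches 1 FPKM in H146 alone has to be highest there; such genes numbered 366, of which 245 were called higher. Among the 13588 genes at 1 FPKM or more in another line, 277 were called higher (2.04%). A gene can be called lower only where all other lines reach 1 FPKM, and of the 8136 such genes 383 were called lower (4.71%). In bulk RNA, fewer cells that express a gene and less RNA per cell cannot be told apart. The split between higher and lower depends on how the libraries are scaled. The calls were 57.7% higher as deposited, 69.9% higher (677 against 292) with upper-quartile scaling and 72.9% higher (898 against 333) after the FPKM of protein-coding genes outside the mitochondrial genome were set to the same total. The median protein-coding gene stood at -0.11 (log2) in H146 against the median of the other lines as deposited and at 0.14 in the last of these scalings. H146 kept the largest number in both directions under each scaling tried.

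**Figure D1:**
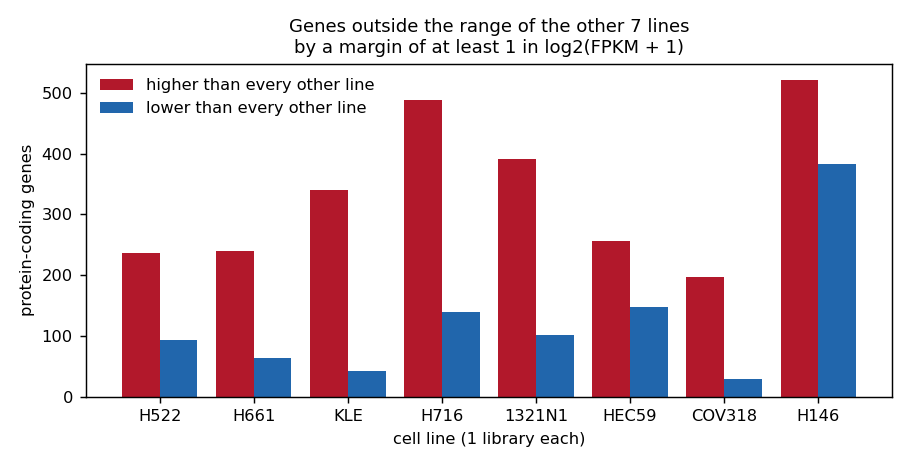
Number of protein-coding genes (vertical axis) that each of the 8 lines (horizontal axis, 1 library each) had above (red) or below (blue) all other 7 lines by at least 1 in log2(FPKM + 1). H146 has the tallest bars, with 383 lower genes, and the next largest counts are 489 higher in H716 and 148 lower in HEC59.

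Some factors of neuroendocrine identity were above all other lines and others were not. INSM1, the zinc-finger factor of neuroendocrine cells, had 81.3 FPKM in H146, 5.27 FPKM in H716 and at most 0.236 FPKM in the remaining 6. Of 32 listed neuroendocrine transcription factors, 22 passed the filter, 5 of them through H146 alone. Of the 22, 9 were called higher (40.9%, against 3.74% of all protein-coding genes) and none lower. Among those called, besides INSM1, were FOXA2, ST18, MYT1, MYT1L, INSM2, ONECUT1 and SOX11. ST18, a zinc-finger factor of the MYT1 family, reached 44.0 FPKM against at most 7.66 FPKM, and MYT1L, a factor that holds neurons in their identity, 9.13 FPKM against at most 0.0299 FPKM. FOXA2, a pioneer factor of endoderm, had 18.9 FPKM in H146 and 5.26 FPKM in H716. NEUROD1, which marks another neuroendocrine subtype, stood at 0.0906 FPKM in H146, and POU2F3, the factor of the tuft cell subtype, was listed at 0. The lung factor NKX2-1 stood at 0.0167 FPKM in H146 and at up to 11.2 FPKM, in H661.

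Among the 4 genes fixed as markers of H146, INSM1 and PTPRZ1 were called higher and SYP and SYK were not. PTPRZ1, a receptor phosphatase of neural progenitors and glia, stood at 36.1 FPKM in H146 and at 0 to 0.404 FPKM (median 0) in the other lines. SYP, a membrane protein of synaptic vesicles, had 6.00 FPKM in H146, 6.67 FPKM in H716 and a median of 0.472 FPKM. SYK, a kinase best known from immune receptors, reached 15.5 FPKM in H146 and 11.5 FPKM in KLE, with a median of 0.0274 FPKM, and its margin was 0.39. Without KLE the margin of SYK was 3.25, and without H716 that of SYP was 1.05, so 1 library decides each.

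The machinery of regulated secretion was well represented. Of 36 such genes past the filter (1 of them through H146 alone), 13 were called higher (36.1%) and none lower, and 18 were highest in H146. Over all protein-coding genes, 3.74% were called higher and 12.3% were highest in H146. DDC, which decarboxylates amine precursors, stood at 194 FPKM in H146 and at up to 49.7 FPKM, in H716, with a median of 0.130 FPKM. SYT4, a synaptotagmin of dense-core vesicles, had 78.0 FPKM against 16.4 FPKM in H716 and a median of 0. SNAP25, a fusion protein of the vesicle docking complex, reached 67.6 FPKM in H146 and 17.5 FPKM in H716. The priming factors CADPS and CADPS2 stood at 23.7 and 42.3 FPKM, against at most 2.27 and 3.56 FPKM. SV2B, a vesicle transporter, had 19.9 FPKM in H146 and at most 0.0741 FPKM elsewhere, and the release-site scaffold RIMS2 43.9 FPKM against at most 9.81 FPKM. PCSK2, which cuts prohormones, reached 26.6 FPKM against 3.35 FPKM in H716. ENO2, the neuronal enolase used as a serum marker of the disease, stood at 43.9 FPKM, with 19.3 FPKM in H716 and a median of 3.58 FPKM.

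Granule proteins differed in which of H146 and H716, the cecal line, had the higher level. SCG2, secretogranin II, stood at 87.1 FPKM in H146 and 54.8 FPKM in H716, and the next 4 were higher in H716. CHGA, chromogranin A, stood at 7.59 FPKM in H146 and 15.4 FPKM in H716. CHGB had 12.8 FPKM in H146 and 55.6 FPKM in H716, and SCG3 had 27.4 and 68.3 FPKM. The prohormone convertase PCSK1 differed most among the 4, with 4.59 FPKM in H146 and 124 FPKM in H716. CHGA, CHGB, SCG3 and PCSK1 were at 1.11 FPKM or less in the remaining 6 lines, and SCG2 at 18.2 FPKM or less. H146 and H716 together lay above the remaining 6 lines by at least 1 for 145 protein-coding genes and below them for 86. With any other partner line, H146 shared 12 to 58 genes above and 3 to 43 below. Shared members of the lists included PROX1 (51.1 FPKM in H146, 33.9 in H716, at most 0.263 elsewhere), DCX (18.0, 18.8 and at most 0.0442 FPKM) and HES6 (51.0, 46.5 and at most 3.24 FPKM). PROX1 is a homeobox factor, DCX a microtubule protein of young neurons and HES6 a factor that opposes HES1.

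Peptides that H146 expressed included several with endocrine roles. NTS, the gene of neurotensin, had the highest level among the leading genes, at 971 FPKM in H146, against 26.0 FPKM in 1321N1 and a median of 0.609 FPKM. GHRH, growth hormone-releasing hormone, stood at 21.3 FPKM and was listed at 0 in all other lines. PRL, prolactin, had 59.9 FPKM in H146 and 4.16 FPKM in H522, and PENK, the precursor of enkephalins, 20.3 FPKM against at most 0.0361 FPKM. CCKBR, a receptor for gastrin and cholecystokinin, stood at 21.8 FPKM against at most 0.205 FPKM. GRP, gastrin-releasing peptide, a known product of this cancer, was lower, at 4.86 FPKM against at most 1.06 FPKM. These 6 were the members called, all higher, of 19 past the filter (3 through H146 alone) in a list of peptides and receptors. That is 31.6%, against 3.74% of all protein-coding genes. The list was drawn up after its values were seen, so nothing is read from this share. Its median member stood 0.126 (log2) above the median of the other lines. The somatostatin gene SST was listed at 0 in H146 and stood at 476 FPKM in H716.

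**Figure D2:**
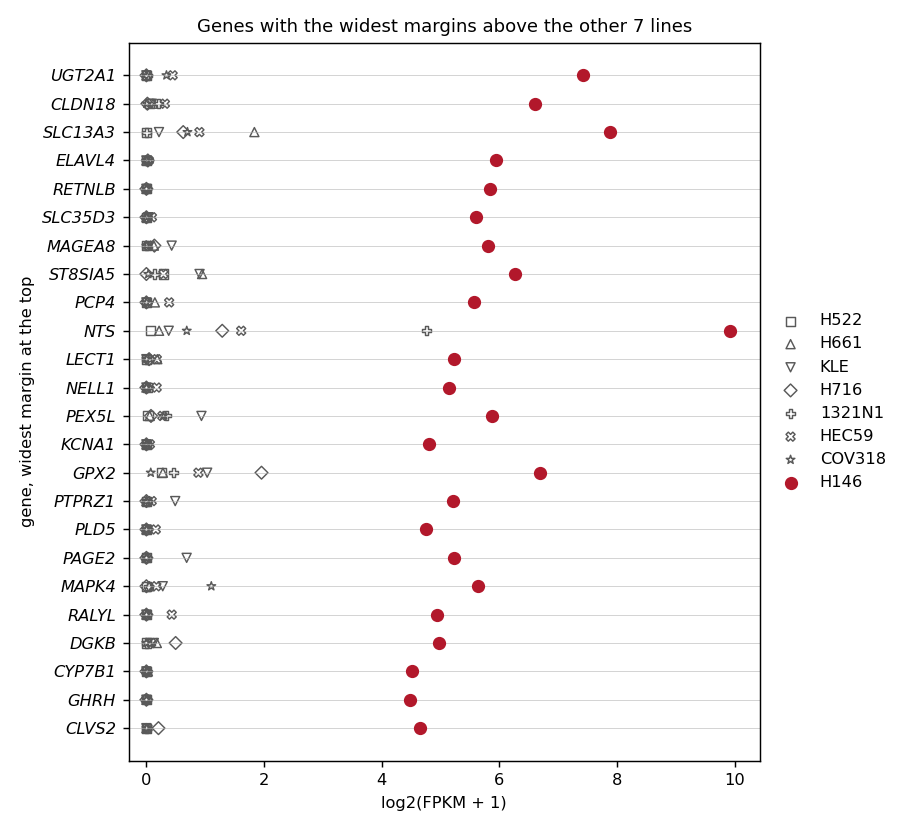
Expression as log2(FPKM + 1) (horizontal axis) of 24 of the 25 protein-coding genes with the widest margin above the other 7 lines, 1 gene per row, with H146 as filled red circles and the other lines as open symbols. UGT2A1 has the widest margin shown, 6.97, and NTS has the highest level, 971 FPKM.

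Neuronal genes outside the secretory machinery were also called. Of 21 neuronal RNA-binding and splicing proteins past the filter, 4 of them through H146 alone, 6 were called higher (28.6%) and none lower. The share called higher over all protein-coding genes was 3.74%. ELAVL4, the neuronal HuD antigen to which paraneoplastic antibodies bind, stood at 60.5 FPKM in H146 and at 0 to 0.0297 FPKM elsewhere. NOVA1 had 27.4 FPKM against at most 5.55 FPKM, CELF4 33.7 FPKM against at most 3.74 FPKM, and SRRM4, which drives neuronal microexons, 6.66 FPKM against 2.05 FPKM in H716. The broadly expressed splicing repressor PTBP1 was at its lowest in H146, at 76.3 FPKM against 144 to 254 FPKM, with a margin below 1. ESRP1, an epithelial splicing factor in the same list, was called higher too, at 61.6 FPKM against at most 9.89 FPKM.

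Ion channels and receptors gave 8 of 35 higher (22.9%, against 3.74% of all protein-coding genes) and none lower. Of the 35, 7 passed the filter through H146 alone. CACNA1A, the pore of the P/Q-type calcium channel targeted in Lambert-Eaton syndrome, stood at 45.6 FPKM against at most 2.55 FPKM. SCN3A, a sodium channel of developing neurons, had 32.6 FPKM against at most 3.40 FPKM, and TRPM8, the cold receptor, 14.3 FPKM against at most 0.0899 FPKM. The voltage-gated potassium channel gene KCNA1 was among the leading 25, with 26.8 FPKM against at most 0.0423 FPKM. In the list of axon guidance and neuronal adhesion genes, 7 of 33 were called higher (21.2%) and 1 lower (3.03%). Over all protein-coding genes, these shares were 3.74% and 2.74%. Of the 33, 4 passed the filter through H146 alone. The guidance receptor ROBO2 stood at 25.5 FPKM against at most 1.46 FPKM and CNTNAP2, a neurexin family protein, at 16.1 FPKM against at most 0.511 FPKM. The member called lower was SEMA3C, a secreted semaphorin, at 0.0297 FPKM against 15.8 to 145 FPKM.

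Surface antigens that are studied as targets in this cancer were called higher for 4 of 19 and lower for none. The share called higher was 21.1%, against 3.74% of all protein-coding genes. SEZ6, a neuronal surface protein, stood at 64.3 FPKM in H146, 8.65 FPKM in H716 and a median of 0.452 FPKM. CD47, the signal against phagocytosis, had 185 FPKM against 38.8 FPKM in HEC59 and a median of 17.4 FPKM. The chemokine receptor CXCR4 reached 21.1 FPKM against at most 1.20 FPKM, and CACNA1A is the fourth. DLL3, the Notch ligand to which approved therapy is directed, was not outside the other lines: it stood at 7.98 FPKM in H146, 8.55 FPKM in KLE and a median of 2.17 FPKM. NCAM1, the CD56 antigen, had 52.3 FPKM in H146 and 84.5 FPKM in H716.

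REST and the Notch receptor genes NOTCH1 and NOTCH2 were called lower. REST stood at 0.0375 FPKM in H146 and at 22.9 to 53.6 FPKM (median 36.8) in the other lines, a margin of 4.53. NOTCH2 was listed at 0 in H146 and stood at 1.01 to 42.1 FPKM elsewhere, and NOTCH1 had 0.0472 FPKM against 1.30 to 3.82 FPKM. HES1, the main target of Notch signalling, stood at 0.122 FPKM against 3.22 to 44.6 FPKM (median 6.35). Those 4 were the members called lower among 25 of the Notch list past the filter. REST, the repressor of neuronal genes, was counted in that list. Another 2 members were called higher, DLL1 and DLK1, of which DLL1 passed the filter through H146 alone. The shares over all protein-coding genes were 2.74% lower and 3.74% higher. NOTCH2 had a margin of only 1.01. With a pseudocount of 5, REST alone of the 4 stayed lower, and NOTCH1, NOTCH2 and HES1 had margins of 0.265 to 0.682. Both higher calls stayed. Under the 3 scalings all 4 stayed lower. The ligand gene DLL1 had 6.39 FPKM against at most 0.295 FPKM, and DLK1, a non-canonical ligand, 29.8 FPKM against at most 2.93 FPKM. The levels of REST, NOTCH1 and HES1 in H146 were 0.122%, 1.24% and 1.92% of those in HEC59. Among them, only that of REST lies below the median share of the traces, 0.754%, and the spread of the traces was not measured.

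In the cell cycle genes, RB1 and CCND1 were called lower and no member of that list was called higher. The share called lower was 6.45% of 31 past the filter, against 2.74% of all protein-coding genes. RB1 stood at 2.31 FPKM in H146 and at 12.8 to 55.6 FPKM (median 40.5) elsewhere. CCND1, the cyclin whose kinase partner inactivates RB1, had 0.0996 FPKM against 19.1 to 342 FPKM. The inhibitor CDKN2A had 63.7 FPKM in H146, within the 0.146 to 118 FPKM of the others. Of 20 genes of DNA replication and mitosis, none was called in either direction, and 3 were highest in H146. MKI67, a marker of cycling cells, had 18.5 FPKM in H146 and 12.5 to 39.0 FPKM elsewhere. MYC, at 37.9 FPKM, also lay within the other lines, while MYCN and MYCL stood at 0.221 and 0.323 FPKM.

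Of 28 regulators of cell death past the filter, 2 were called higher (7.14%, against 3.74% of all protein-coding genes) and none lower. BCL2, which blocks the mitochondrial pathway, stood at 10.5 FPKM against 2.74 FPKM in 1321N1 and a median of 1.75 FPKM. PMAIP1, the gene of NOXA, which neutralises MCL1, had 107 FPKM against 52.6 FPKM in H716 and a median of 11.7 FPKM, a margin of 1.01. MCL1 itself stood at 23.8 FPKM, between the 20.9 and 35.2 FPKM of the other lines.

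The YAP1 pathway was low in H146. Of 28 members past the filter, 17 had their lowest level in H146, 6 were called lower (21.4%) and none higher. Over all protein-coding genes, 20.0% were lowest in H146 and 2.74% were called lower. YAP1, the transcriptional coactivator, stood at 0.0586 FPKM in H146 and at 6.11 to 65.0 FPKM (median 35.5) elsewhere. Its partner gene WWTR1, which encodes TAZ, had 0.220 FPKM against 1.12 to 60.4 FPKM, with a margin below 1. The target gene CYR61 stood at 0.0159 FPKM against 3.86 to 249 FPKM. AJUBA, PTPN14, WWC2 and FSTL1 were the other members called. H716 was the lowest of the other lines for 5 of these 6, with 1321N1 for WWC2.

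The leading lower genes included VIM, MSN and ANXA1 from the list of mesenchymal and cytoskeletal genes. S100A10, the partner of annexin A2, had the widest margin of all genes called lower, with 0.771 FPKM in H146 and 350 to 3183 FPKM (median 563) elsewhere. VIM, the intermediate filament of mesenchymal cells, stood at 0.219 FPKM against 167 to 2100 FPKM (median 402). MSN, moesin, which links actin to the membrane, had 0.0533 FPKM against 67.5 to 340 FPKM, whereas its relative EZR was at 71.7 FPKM, within the other lines. ANXA1 stood at 0.0254 FPKM against 16.3 to 819 FPKM, and ANXA2 at 35.4 FPKM against 349 to 1651 FPKM. In the mesenchymal list, 9 of 39 genes past the filter were called lower (23.1%) and none higher, the others being ZEB1, LAMC1, CALD1, TPM4 and LGALS1. Over all protein-coding genes, 2.74% were called lower and 3.74% higher. With a pseudocount of 5, 6 of the list were called lower. The levels of S100A10, VIM and MSN were 0.218%, 0.131% and 0.0462% of those in HEC59, while that of ANXA2 was 10.1%. TPM4 had a margin of 1.03 as deposited and was not called under any scaling tried.

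Integrin and focal adhesion genes were lowest in H146 for 19 of 38, with 4 called lower (10.5%): FERMT2, ZYX, TLN2 and ACTN1. Over all protein-coding genes, 20.0% were lowest in H146 and 2.74% were called lower. FERMT2, kindlin-2, which activates integrins, stood at 0.409 FPKM against 8.48 to 67.5 FPKM. The caveolin gene CAV1 was at 0.0148 FPKM in H146 and 0.227 to 1010 FPKM elsewhere. The integrin chain ITGB1 had 73.3 FPKM, within the other lines. Of 28 epithelial genes past the filter (1 through H146 alone), 2 were called higher (7.14%) and 1 lower (3.57%). These shares stand beside 3.74% and 2.74% of all protein-coding genes. EPCAM stood at 253 FPKM in H146 (0.0878 to 300 FPKM elsewhere) and CDH1, E-cadherin, at 26.1 FPKM (0.0286 to 102 FPKM). CLDN7, a claudin, was called higher, at 26.9 FPKM against at most 6.20 FPKM, as was RAB25, while the tight junction scaffold TJP1 was called lower, at 2.49 FPKM against 61.4 to 190 FPKM.

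**Figure D3:**
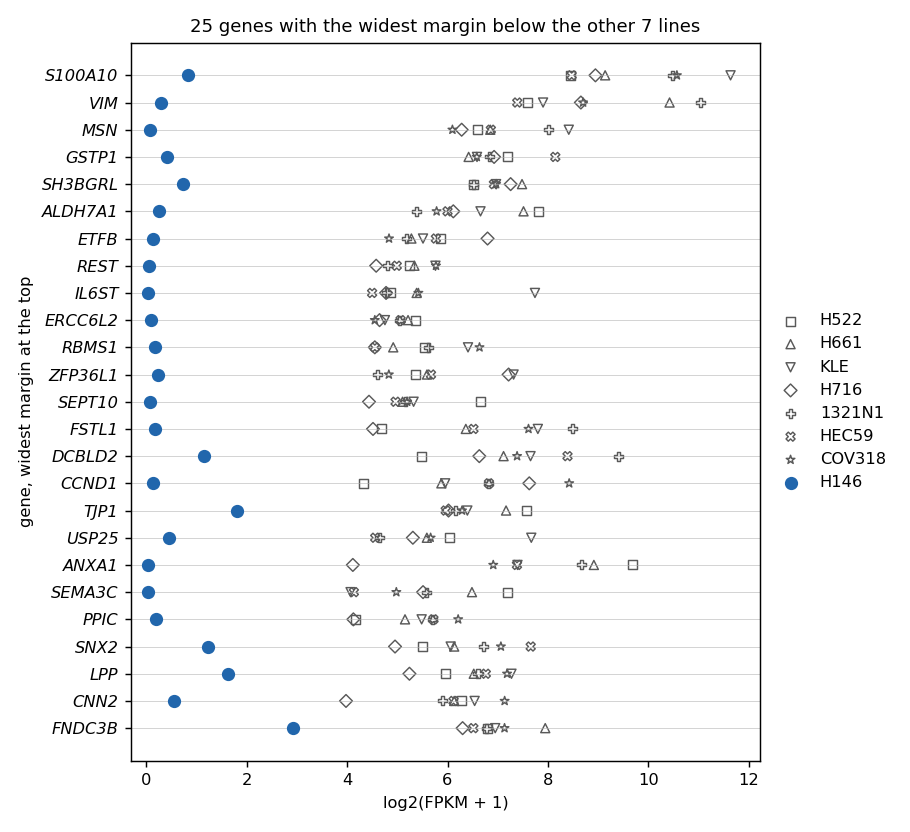
Expression as log2(FPKM + 1) (horizontal axis) of the 25 protein-coding genes with the widest margin below the other 7 lines, 1 gene per row, with H146 as filled blue circles and the other lines as open symbols. S100A10 leads with 0.771 FPKM in H146 against at least 350 FPKM, and REST stands at 0.0375 FPKM against at least 22.9 FPKM.

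Antigen presentation genes were lowest in H146 for 14 of 23, and 3 were called lower (13.0%): HLA-E, TAP1 and TAP2. Over all protein-coding genes, 20.0% were lowest in H146 and 2.74% were called lower. With a pseudocount of 5, none of these 3 was called. HLA-E, a class I molecule read by natural killer cells, was listed at 0 in H146 and stood at 4.86 to 18.7 FPKM elsewhere. TAP1, a chain of the peptide transporter, was listed at 0 against 2.54 to 10.8 FPKM, and TAP2 had 0.0364 FPKM against 2.55 to 8.21 FPKM. B2M, the light chain of class I, had 29.6 FPKM against 40.2 to 578 FPKM, a margin below 1. Genes of this region have near-identical copies on alternate haplotypes, which makes their values uncertain. In the interferon and innate sensing list, 12 of 42 were lowest in H146 and 3 were called lower (7.14%), IL6ST and TNFRSF1A among them. None was called higher, against 3.74% higher and 2.74% lower over all protein-coding genes. IL6ST, the shared receptor chain gp130, stood at 0.0246 FPKM against 21.6 to 213 FPKM, and the TNF receptor gene TNFRSF1A at 4.92 FPKM against 22.8 to 128 FPKM. TMEM173, which encodes STING, had 0.0111 FPKM in H146, with a lowest value of 0.285 FPKM elsewhere.

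Receptor tyrosine kinases gave 3 of 36 lower (8.33%, against 2.74% of all protein-coding genes) and none higher. ERBB4, which the series was chosen on, was lowest in H146 at 13.4 FPKM, against 28.5 to 102 FPKM, a margin of 1.03 that fell to between 0.49 and 0.64 under the scalings tried. EPHA2 stood at 0.254 FPKM against 2.11 to 37.8 FPKM, and EPHB4 at 0.0452 FPKM against 1.61 to 8.07 FPKM. EGFR and IGF1R were also lowest in H146, at 0.00692 and 2.15 FPKM, without reaching the margin.

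Detoxification genes included both directions. GSTP1, the main glutathione transferase of many tumours, stood at 0.339 FPKM in H146 and at 84.7 to 282 FPKM (median 114) elsewhere, which is 0.120% of the HEC59 level. GPX2, the gut glutathione peroxidase, was called higher at 102 FPKM, against 2.88 FPKM in H716 and a median of 0.374 FPKM. GSTK1 and GPX8 were the other members called lower, of 31 past the filter. The list had 9.68% lower and 3.23% higher, against 2.74% and 3.74% of all protein-coding genes. In the remaining metabolic lists, PSAT1, an enzyme of serine synthesis, was called lower at 12.3 FPKM against 61.9 to 165 FPKM. ENO2 and PGAM2 were among the 3 of 26 glycolytic isozymes called higher (11.5%, against 3.74% of all protein-coding genes). Of those 26, 2 passed the filter through H146 alone, PGAM2 among them, and 7 were lowest in H146.

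Cancer-testis antigens, which are silent in most adult tissues outside the testis, were called higher for 5 of 21. That is 23.8%, against 3.74% of all protein-coding genes, and 3 of the 21 passed the filter through H146 alone. MAGEC2 stood at 60.9 FPKM against 16.9 FPKM in KLE, MAGEC1 at 24.0 FPKM against 1.69 FPKM in 1321N1, and PAGE2 at 36.5 FPKM against 0.607 FPKM in KLE. MAGEA8, outside the list, was among the leading 25, at 54.9 FPKM against at most 0.347 FPKM. These families have close paralogs on the X chromosome, among which fragments may have been split, so that single members are uncertain.

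Several leading genes are known from quite different tissues. UGT2A1, a glucuronosyltransferase of the olfactory epithelium, stood at 170 FPKM against at most 0.363 FPKM, though it shares sequence with its neighbour UGT2A2 and is uncertain. SLC13A3, a dicarboxylate carrier of the kidney, had 236 FPKM against at most 2.57 FPKM, and CLDN18, a claudin of stomach and lung, 96.7 FPKM against at most 0.243 FPKM. RETNLB, a goblet cell protein, stood at 56.2 FPKM and was listed at 0 in all other lines. ST8SIA5, which adds sialic acid to gangliosides, had 76.2 FPKM against at most 0.927 FPKM, and CYP7B1, a hydroxylase of sterols, 21.7 FPKM against at most 0.0181 FPKM. Further genes among the leading 25 were SLC35D3, PCP4, LECT1, NELL1, PEX5L, PLD5, MAPK4, RALYL, DGKB and CLVS2, with levels of 24.2 to 57.8 FPKM in H146.

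The rest of the leading 25 lower genes are of mixed function. SH3BGRL stood at 0.656 FPKM against 90.1 to 178 FPKM, the mitochondrial electron carrier ETFB at 0.0907 FPKM against 27.5 to 110 FPKM, and ERCC6L2, a helicase-like repair protein, at 0.0696 FPKM against 22.5 to 39.9 FPKM. RBMS1, ZFP36L1, SEPT10, DCBLD2, USP25, LPP, CNN2 and FNDC3B complete it, with 0.0563 to 6.56 FPKM in H146. CTSL, a lysosomal protease, and STOM, a membrane scaffold, were listed at 0 in H146 while every other line had at least 5.54 and 6.72 FPKM.

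**Figure D4:**
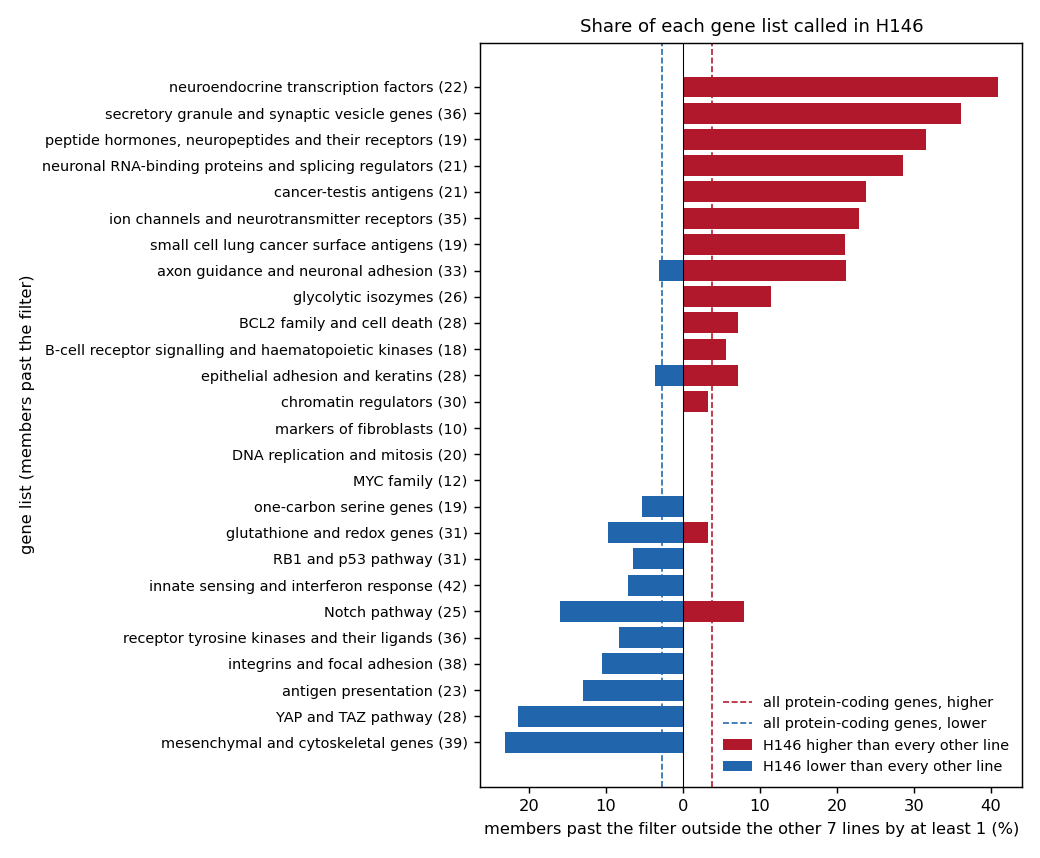
Share of the members past the filter (horizontal axis, percent) of each gene list (vertical axis, number of members past the filter in brackets) that H146 had above (red, right) or below (blue, left) all other lines by at least 1. Dashed lines give the shares over all protein-coding genes, 3.74% higher and 2.74% lower. Neuroendocrine transcription factors reach 40.9% higher, with 5 of 22 past the filter through H146 alone, and mesenchymal genes 23.1% lower. The list of peptides was drawn up after its values were seen.

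The calls were spread unevenly over the chromosomes. On chromosome 18, 28 of 216 genes past the filter were called higher (13.0%) and 38.9% had their highest level in H146, and the median gene there stood 0.61 (log2) above the median of the other lines. Chromosome 13 followed with 7.51% called higher, and the lowest share was 2.01%, on chromosome 19. Chromosome 18 holds genes of several groups described above: SYT4, CELF4, GRP, BCL2, PMAIP1, ST8SIA5 and MAPK4. The median was lowest on chromosome 14, at -0.52 (log2), with 5.07% of genes called lower and 35.0% lowest in H146. DNA copy number was not measured, and its part in these shares was not tested.

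Genes called lower also lay side by side on chromosome 5, in the order of GENCODE v29. Among genes that all other lines express at 1 FPKM or more, SNX2, SNX24, PPIC, CEP120 and CSNK1G3 formed a run of 5 neighbours, the longest in H146. SNX2, a sorting nexin of the retromer, stood at 1.34 FPKM against 30.0 to 201 FPKM. PPIC, a cyclophilin, had 0.148 FPKM against 16.4 to 73.1 FPKM, and CEP120, a centriole protein, 0.576 FPKM against 7.44 to 47.4 FPKM. CSNK1G3, a casein kinase, stood at 0.530 FPKM against 13.0 to 71.3 FPKM. The next genes, ZNF608 and GRAMD3, lay within the other lines, at 21.6 and 5.34 FPKM, and were followed by ALDH7A1 and PHAX, both called lower. ALDH7A1, a lysine-degrading dehydrogenase, had 0.187 FPKM in H146 and 40.7 to 223 FPKM elsewhere. The same search in the other lines gave longest runs of 2 to 5 genes, except for 8 genes around CDKN2A on chromosome 9 in 1321N1.

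**Figure D5:**
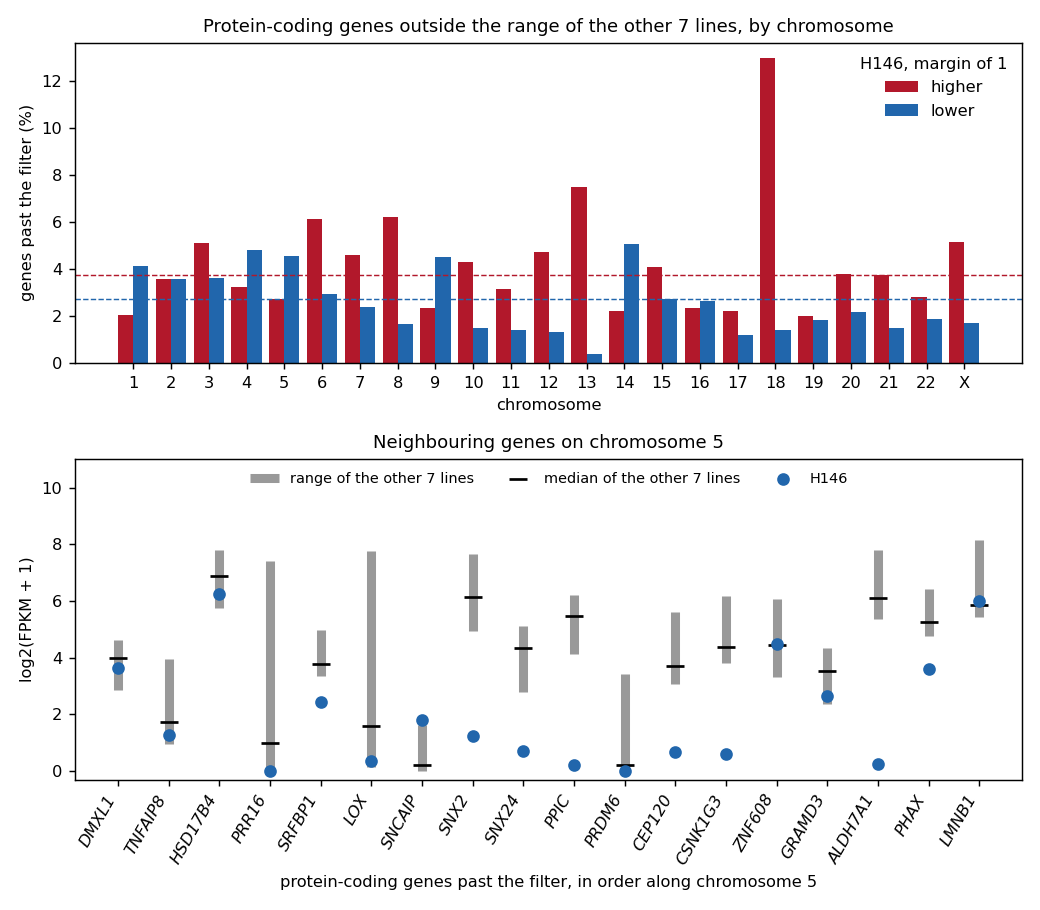
Top: share of protein-coding genes past the filter (vertical axis, percent) called higher (red) or lower (blue) in H146 on each chromosome, with dashed lines at 3.74% and 2.74%; chromosome 18 reaches 13.0% higher. Bottom: log2(FPKM + 1) of neighbouring genes on chromosome 5 in H146 (blue circles) beside the range (grey bars) and median (black) of the other 7 lines, with SNX2 to CSNK1G3 and ALDH7A1 far below the bars.

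Among 5255 genes of other types, 283 were called higher (5.39%) and 29 lower (0.552%). RNA5SP300, a 5S ribosomal pseudogene, AC023593.1 and AC009065.3 led with the same value of 1143 FPKM and were listed at 0 elsewhere, which for short RNAs can come from very few fragments. The long non-coding RNA LINC00152 led the lower side, with 0.197 FPKM against 15.4 to 106 FPKM, followed by RP11-124N14.3 and by MIR4435-2HG, a close relative of LINC00152. MIR4435-2HG had 0.882 FPKM against 13.2 to 53.6 FPKM, and reads of the pair may have been split between them.

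Markers of other cell types were looked up as well. None of 14 immune and none of 8 endothelial markers reached 1 FPKM, and their summed levels were 2.39 FPKM (0.650 to 14.5 FPKM elsewhere) and 0.219 FPKM (0.804 to 44.9 FPKM). Of 10 lung alveolar markers, 6 were listed at 0, SFTPB and SFTPC among them, and only ABCA3, at 22.3 FPKM, passed 1 FPKM; their sum of 22.7 FPKM lay within the 2.64 to 47.5 FPKM of the other lines. Of 10 fibroblast markers 5 were listed at 0, and the 3 at 1 FPKM or more were THY1, PDGFRA and COL3A1. Their summed level of 23.7 FPKM lay within the 4.08 to 802 FPKM of the other lines.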

How the data were processed

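Sequencing measured RNA in 8 human cancer lines with 1 library each. The authors deposited an FPKM value for each of 58202 Ensembl genes per line, per the file headers. CASAVA 1.4, TopHat2 2.0.8, SAMtools 1.0 and the build GRCh37 are named in the submitters' processing notes. The sources used here do not give the program behind the FPKM, its annotation or its use of strand, so values of overlapping genes on opposite strands may be mixed. Lines were joined on the gene identifier, and log2(FPKM + 1) was compared with Python 3.11.15, pandas 2.3.3 and numpy 2.4.6, with no test. Gene type, chromosome and gene order came from GENCODE release 29 (GRCh38), which holds 82.2% of the identifiers, and promoters from RefSeq on GRCh38.p14.

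Genes named are the 25 protein-coding genes with the widest margin in each direction, members of 28 lists that were called, highest or lowest in H146 or that define a list, the markers INSM1, SYP, PTPRZ1 and SYK, the leading genes of other types, and genes listed at 0 in H146 with 5 FPKM or more in all other lines. Other genes named were chosen after their values were seen, as were the chromosome 5 neighbours, the list of peptides and the REST site. The line, the lists and the rules were chosen with earlier results of these data known. The margin calculation was tested on simulated data for H146 against the others, with 200 of 5076 genes placed 1.5 (log2) outside the range, and recovered 200. The genes were placed without noise, so this checks the calculation and says nothing of how reliable the calls are. A few genes are not reported here. Depth is unknown, so no counting interval is given. Alternatives were other pseudocounts, filters, scalings and margins, all gene types, and fewer comparison lines.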

Additional observations from a re-analysis of the deposited data

How the results depend on the processing

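Against the genes called higher as deposited (245 expressed in H146 alone and 277 others) and the 383 called lower, a pseudocount of 5 left 261 and 147, and a pseudocount of 0.1 gave 657 lower. Rescaling protein-coding FPKM outside the mitochondrial genome to a common total gave 898 higher, and all gene types together gave 805 higher. Margins of 0.5 and 2 gave 939 and 201 higher and 1017 and 97 lower. Against 1321N1, HEC59 and COV318 alone, where 24.1% to 29.5% of low values lay at the commonest ratio to H146 (12.9% to 20% in the other 4 lines), 992 were higher and 915 lower, and against H522, H661, KLE and H716 alone 790 and 720; fewer comparison lines can only add calls. Leaving out 1 comparison line gave 558 to 678 higher and 410 to 537 lower genes. Requiring 1 FPKM in another line, an alternative chosen after the data were seen, left 277 higher. Of the 383 lower genes, 281 to 327 stayed called under the 3 scalings, and of the higher genes all but at most 10. Among 90 higher and 63 lower genes followed by name, 68 and 42 stayed called with a pseudocount of 5, all 90 and 59 to 61 under the scalings, and none changed direction under any alternative run. Those lost to scaling were ERBB4 and TPM4 under all 3, GSTK1 under 2, and 1 further gene under 1. The counts under the other alternatives stayed within 1.5 times those given. No paired analysis was possible because each line has 1 library and no test was run. The cause of these differences was not tested beyond their construction.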

Other observations

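In the list of B-cell receptor signalling and haematopoietic kinase genes, 18 of 32 passed the filter. Of these, LCP1 alone was called higher (5.56%, against 3.74% of all protein-coding genes). A few other genes known from blood cells had wide margins in H146; they were singled out after their values were seen. NCKAP1L, a haematopoietic regulator of actin, stood at 17.7 FPKM in H146 and at most 0.184 FPKM elsewhere. CD226, an activating receptor of natural killer and T cells, had 15.6 FPKM against at most 0.746 FPKM, and TRAT1, an adaptor of the T cell receptor, 9.44 FPKM against at most 0.0259 FPKM. LCP1, plastin of leukocytes, reached 45.9 FPKM against 8.70 FPKM in HEC59. The pan-leukocyte gene PTPRC stood at 0.967 FPKM and the T cell gene CD3E at 0.0268 FPKM, both below 1 FPKM. PAX5, the B-cell factor, stood at 5.79 FPKM in H146 and 5.76 FPKM in H716, and at most 0.0202 FPKM in the remaining lines.

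Chromosome 4 held the next longest runs of neighbours called lower in H146, each of 3 genes: EIF4E, METAP1 and ADH5, and FAM175A, WDFY3 and AFF1. In the list of chromatin regulators 1 of 30 members was called higher (3.33%, against 3.74% of all protein-coding genes) and none lower. It was ACTL6B, the neuronal subunit of the BAF complex, at 4.40 FPKM against 1.29 FPKM in H716. SMARCA4, the ATPase of that complex, was highest in H146, at 106 FPKM against 69.5 FPKM in HEC59 and a median of 39.1 FPKM.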
